A study of Mus musculus with 6 samples.

Results

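Layer identity was followed through 9 genes of the neocortex, chosen by symbol from the 24419 genes of the deposited table: 4 upper-layer genes, Cux1, Cux2, Rorb and Rasgrf2, and 5 deep-layer genes, Fezf2, Bcl11b, Foxp2, Tle4 and Tbr1. All 9 were in the table, and all 9 passed the filter on low values, which kept 14796 genes. RNA had been sequenced from cells of male mouse cortex beside an infarct, taken on day 4 after the middle cerebral artery was blocked for 60 minutes. The cells were sorted as Thy1-positive and negative for ACSA2, CD31, CD45 and O4, surface markers of astrocytes, endothelium, leukocytes and oligodendrocytes. In 3 libraries, labelled control, the mice carried Padi4 flox/flox alleles alone, and in 3 libraries, labelled cKO, they also carried Slc17a7-cre and Slc32a1-cre, which act in glutamatergic and GABAergic neurons. Floxed Padi4 and the arterial occlusion were thus common to every library. The age of the mice was not given in the sources used here, and the labels do not say whether libraries came from separate animals.

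Excitatory neurons of the neocortex lie in layers that differ in their targets. Upper-layer neurons connect cortical areas, including across the corpus callosum, while deep-layer neurons send axons to the thalamus, brainstem and spinal cord. During development these fates are set by transcription factors that repress one another, and several remain on in the adult, where they mark the layers. All 9 genes are used as markers of excitatory neurons. Foxp2 and Bcl11b are, however, also well known from striatal projection neurons, and Bcl11b from T cells and cortical interneurons. Cux1 and Tle4 are expressed outside neurons too.

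Start regions are shown for 3 of these genes, because Rasgrf2 varied least of the 9 between libraries when set against pan-neuronal genes, Tle4 varied least on the plain scale, and Rorb is a further upper-layer gene whose span narrowed against pan-neuronal genes. Each is the 250 bases before the RefSeq start in GRCm38.p6, the assembly of mm10, read on the gene's strand, and none of the 3 overlaps an annotated exon of its gene. Capitals mark CCAAT or its reverse complement, the only searched motif found in them.

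Rorb, chr19:19111197-19111446, minus strand: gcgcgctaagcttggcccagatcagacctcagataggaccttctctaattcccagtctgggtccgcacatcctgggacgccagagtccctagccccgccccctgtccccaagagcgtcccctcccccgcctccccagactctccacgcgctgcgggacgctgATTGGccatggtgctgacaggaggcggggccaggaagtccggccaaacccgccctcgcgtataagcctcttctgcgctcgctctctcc
Rasgrf2, chr13:92131829-92132078, minus strand: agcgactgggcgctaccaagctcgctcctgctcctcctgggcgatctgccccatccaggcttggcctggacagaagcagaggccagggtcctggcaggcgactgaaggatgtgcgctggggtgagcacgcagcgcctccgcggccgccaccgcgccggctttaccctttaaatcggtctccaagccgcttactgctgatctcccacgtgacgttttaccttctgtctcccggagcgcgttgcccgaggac
Tle4, chr19:14598184-14598433, minus strand: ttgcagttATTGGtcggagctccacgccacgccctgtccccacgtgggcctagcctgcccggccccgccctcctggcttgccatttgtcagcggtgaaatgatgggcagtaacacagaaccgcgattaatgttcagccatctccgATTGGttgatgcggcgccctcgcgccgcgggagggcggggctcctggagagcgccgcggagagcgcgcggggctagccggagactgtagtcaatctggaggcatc

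RefSeq start regions were matched for 8 of the 9 genes, with 11 windows, and not for Foxp2. Both strands were searched for 6 motifs: the homeodomain core TAATTA, the E-box CAGATG of neurogenic factors, the T-box element AGGTGTGA, the cyclic AMP response element TGACGTCA, the TATA element TATAAA and the CCAAT box. The T-box and cyclic AMP elements were in 0 of the 11 windows, and in 1.1% and 1.5% of all windows. The CCAAT box was in 1 Rorb and 1 Tle4 window and in 33.9% of all 32851 windows. The Tbr1 window held the homeodomain core at 2 places, where 4.84% of all windows hold it at least once. All 250 bases of that Tbr1 window lie in annotated Tbr1 exon. The E-box and the TATA element were each found in the same 1 of 2 Cux2 windows, against 14.4% and 12.4% of all windows. Of that Cux2 window 66 bases lie in annotated Cux2 exon. The windows of the Rorb, Rasgrf2 and Tle4 starts shown were rich in G and C, at 66.0%, 65.2% and 65.2%, against a median of 52.4% over all windows. These matches describe letters only and say nothing of binding.

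The libraries held 10094145 to 24056755 recovered reads, and the fewest genes were detected in control replicate 2 (15261) and cKO replicate 2 (14042). Padi4, the deleted gene, had 0 reads in the 3 libraries labelled control and 0, 3 and 12 reads in replicates 1, 2 and 3 labelled cKO. Its counts thus did not bear out the labels, and with 0 reads in the control libraries a loss could not have been seen. Each direction given here is that of the labels. A list of 24 pan-neuronal genes summed to 2655 to 12460 scaled CPM. Here scaled CPM means CPM, the reads of a gene relative to the reads of its library, times a further factor per library that the authors applied. A list of 12 oligodendrocyte genes summed to 11748 to 33788, above the pan-neuronal sum in every library but cKO replicate 3. Fewer neurons in a library and less RNA per neuron cannot be told apart in such bulk samples.

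**Figure D1:**
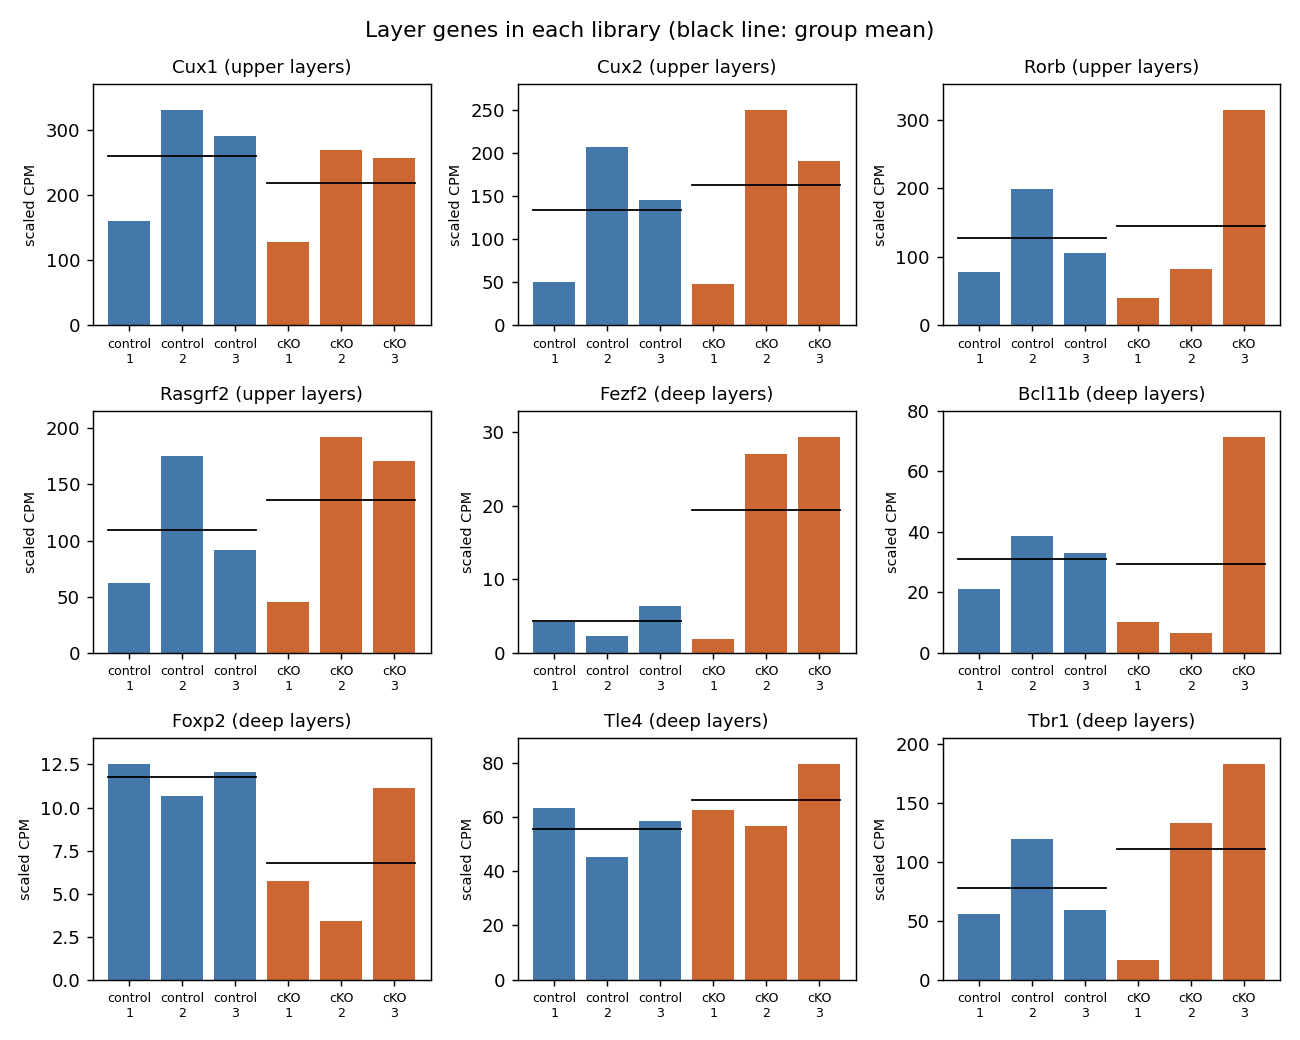
Level of each layer gene (scaled CPM, linear axis from 0) in the 3 libraries labelled control (blue) and the 3 labelled cKO (orange), with a black line at each group mean. The library labelled cKO replicate 1 was the lowest of the 6 for Cux1, Cux2, Rorb, Rasgrf2, Fezf2 and Tbr1, and the groups overlapped for all 9 genes.

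Cux1 and Cux2 encode homeodomain proteins of upper-layer neurons that shape dendrites and spines. Cux1 (chr5:136248135-136567490, minus strand, mm10 here and below) was at 160, 332 and 291 scaled CPM in the control libraries, replicates 1 to 3 in order as throughout, and at 128, 270 and 257 in those labelled cKO. Replicate 1 was the lowest of each group. Cux2 (chr5:121856366-122050102, minus strand) was at 51.0, 207 and 146 and at 48.0, 251 and 191. Again both libraries numbered 1 were low, apart from the other 4. Group means of Cux1 were 261 ± 89.8 and 218 ± 78.5 and those of Cux2 were 135 ± 78.8 and 163 ± 104 (SD, n = 3 each, control first). An antisense gene overlaps 1.97% of the annotated Cux1 exon bases, and whether the counting used strand is not known here.

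Rorb encodes a nuclear receptor that marks the granular layer, the main target of sensory thalamic input. The gene (chr19:18930605-19111196, minus strand) had levels of 78.1, 199 and 106 in the control libraries and 39.4, 82.9 and 315 in those labelled cKO. The libraries labelled cKO held both the lowest and the highest value, so their SD (148) was above that of the control libraries (63.0) around means of 146 and 128. Rasgrf2 encodes an exchange factor for Ras and Rac, not a transcription factor, and marks superficial neurons. Its gene (chr13:91880400-92131656, minus strand) was at 61.9, 176 and 91.3 and at 45.5, 193 and 171. Its order of libraries was the same as for Cux2, from cKO replicate 2 at the top to cKO replicate 1 at the bottom. Group means were 110 ± 59.1 and 136 ± 79.5 (SD, n = 3 each).

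Among the deep-layer genes, Tbr1 encodes a T-box factor of corticothalamic neurons that represses Fezf2 in development. The gene (chr2:61802930-61814114, plus strand) was at 56.0, 120 and 58.9 in the control libraries and at 17.1, 133 and 183 in those labelled cKO. The highest and the lowest value, 10.7-fold apart, were both in libraries labelled cKO. Tle4 encodes a Groucho-type corepressor found in corticothalamic neurons. The gene (chr19:14448150-14598051, minus strand) was at 63.4, 45.3 and 58.4 and at 62.5, 56.6 and 79.5. No other layer gene varied as little, with 1.75-fold between its extremes, and cKO replicate 1, the lowest library for 6 of the 9 genes, was the third highest for Tle4.

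Fezf2 encodes a zinc finger protein that specifies neurons projecting to the brainstem and spinal cord. The gene (chr14:12342094-12348189, minus strand) had control levels of 4.15, 2.21 and 6.39, against 1.92, 27.1 and 29.4 for replicates 1 to 3 labelled cKO. Of the libraries labelled cKO, replicates 2 and 3 thus lay above every control library and replicate 1 below every one. In cKO replicate 1 the 40 reads gave an exact Poisson 95% interval of 1.37 to 2.61, which overlaps that of control replicate 2 (30 reads, 1.49 to 3.15). In cKO replicate 2 the 268 reads gave 23.9 to 30.5, apart from all 3 control intervals. Group means were 4.25 ± 2.09 and 19.5 ± 15.2 (SD, n = 3 each). The extremes were 15.3-fold apart, more than for any of the other 8 genes.

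Bcl11b encodes the zinc finger protein CTIP2, which acts with Fezf2 in neurons that project below the cortex. Its gene (chr12:107910403-108003602, minus strand) was at 21.1, 38.6 and 32.9 in the control libraries and at 10.1, 6.36 and 71.5 in replicates 1 to 3 labelled cKO. Unlike Fezf2, it was lowest in cKO replicate 2, where 63 reads gave an exact Poisson 95% interval of 4.89 to 8.14. Foxp2 encodes a forkhead factor of corticothalamic neurons (chr6:14901349-15441977, plus strand). Its control values lay close together, at 12.5, 10.7 and 12.1, and the values labelled cKO were 5.76, 3.43 and 11.2. The highest of these lay inside the control range, so the groups overlapped. In cKO replicate 2 only 34 Foxp2 reads were found (interval 2.38 to 4.80). Such intervals hold for counting error only.

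Beside Bcl11b and Foxp2, T cell markers were low, while markers of striatal projection neurons and of GABAergic neurons were read in every library. Of 7 T cell genes in the table, Cd3e and Cd2 had 0 reads in every library, and the 7 summed to 1.20 to 4.22 in the control libraries and 1.73 to 6.97 in those labelled cKO. Of 15 genes of striatal projection neurons, Isl1 was at 0 in every library, and the sums were 163 to 180 and 147 to 319. The sum of 319 was in cKO replicate 3, which also held the most Bcl11b and the highest pan-neuronal sum. Several of these striatal genes are expressed in cortex too. A list of 15 genes of GABAergic neurons summed to 286 to 604 in the control libraries and 215 to 847 in those labelled cKO. That sum was highest in cKO replicate 3 and lowest in cKO replicate 1. The part of striatal or GABAergic neurons in the Bcl11b and Foxp2 values was not tested.

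Between the groups, no layer gene passed the threshold of an adjusted p under 0.05 in limma, and across all 14796 genes tested the share that passed was 0%. At an unadjusted p under 0.05 the count was also 0 of 9, where 0.852% of all genes passed. Without cKO replicate 1 the unadjusted count over all genes went from 50 higher and 76 lower to 432 higher and 535 lower of 14362 tested, and it included Fezf2 and Tbr1, with 0 past the adjusted threshold. For 0 of the 9 genes were the groups free of overlap, against 4.7% of all genes. Of the 9 estimates 5 were positive, and their median log2 difference, labelled cKO minus labelled control on log2(scaled CPM + 1), was 0.04, beside -0.02 over all genes. DESeq2 on recovered reads called 1 gene in all, which was not among the 9, and edgeR called 0.

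Fezf2 had the largest estimate, a log2 difference of 1.45 (SE 0.90, 95% interval -0.56 to 3.46, limma adjusted p = 0.9996). On recovered reads the Fezf2 estimate was 2.19 in edgeR (unadjusted p = 0.045) and 2.17 in DESeq2 (unadjusted p = 0.018), with adjusted p-values of 0.9999 and 0.99996. Without cKO replicate 1 it was 2.56 (limma unadjusted p = 0.0029, adjusted p = 0.73) and without cKO replicate 3 it was 0.87. Foxp2 and Bcl11b had the lowest estimates. The Foxp2 difference was -0.83 (SE 0.59, interval -2.14 to 0.47), and it was -0.49 without cKO replicate 2. The Bcl11b difference was -0.78 (SE 0.76, interval -2.47 to 0.91). It moved to -1.78 without cKO replicate 3 (limma unadjusted p = 0.010, adjusted p = 0.9998) and to -0.13 without cKO replicate 2, and edgeR on recovered reads gave -0.08.

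The other 6 estimates lay between -0.27 for Cux1 and 0.24 for Tle4. For Cux1 the interval ran from -1.15 to 0.62 and for Tle4 from -0.47 to 0.96, all in log2 units. Cux2 (0.19), Rasgrf2 (0.20), Rorb (-0.22) and Tbr1 (0.04) had wider intervals, the widest being -1.62 to 1.69 for Tbr1. Intervals this wide do not show that these 4 genes were alike in the groups. Leaving out cKO replicate 1 moved Tbr1 to 1.08 (limma unadjusted p = 0.020, adjusted p = 0.73), and leaving out cKO replicate 3 moved it to -0.60.

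**Figure D2:**
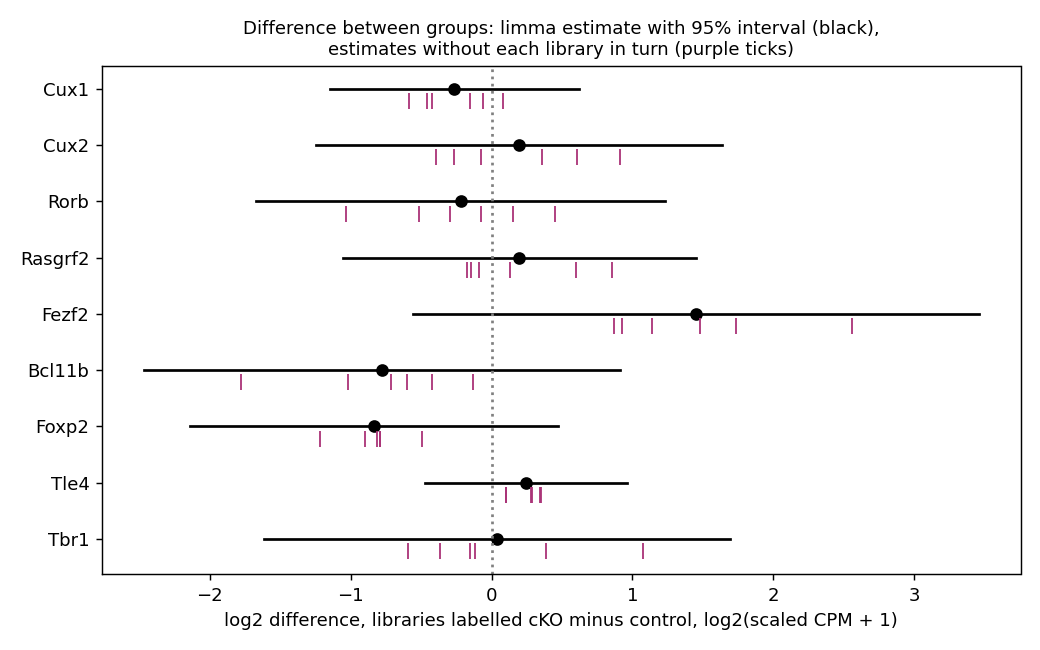
Log2 difference of each layer gene, libraries labelled cKO minus control on log2(scaled CPM + 1), with black points for the limma estimate, black lines for its 95% interval and purple ticks for the estimates without each library in turn. All 9 intervals include 0, and the ticks of Cux1, Cux2, Rorb, Rasgrf2 and Tbr1 fall on both sides of it.

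Upper and deep genes were then set against each other within each library. The mean log2 level of the 4 upper-layer genes was 6.33, 7.80 and 7.17 in the control libraries and 5.88, 7.51 and 7.83 in those labelled cKO. For the 5 deep-layer genes it was 4.49, 4.60 and 4.69, and 3.59, 4.55 and 5.71. Deep-layer means thus lay closer together in the control libraries (SD 0.10) than in those labelled cKO (SD 1.06). That was not particular to deep genes, with SDs of 0.74 and 1.05 for upper-layer and 0.37 and 1.05 for pan-neuronal means. Each deep gene also varied more in the control libraries than their mean did. The log2 SDs there were 0.60 for Fezf2, 0.60 for Tbr1, 0.44 for Bcl11b, 0.25 for Tle4 and 0.11 for Foxp2. These differences in spread were not tested. The upper minus deep difference was 1.84, 3.20 and 2.47 in the control libraries and 2.29, 2.96 and 2.12 in those labelled cKO. Group means of that difference were 2.50 ± 0.68 and 2.46 ± 0.44 (SD, n = 3 each), a gap of -0.05 that was smaller than the spread within either group.

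On a scale per length, with each level divided by the kilobases of annotated exon, upper-layer genes made up 50.7%, 67.4% and 63.5% of the summed level of the 9 genes in the control libraries. The shares were 54.7%, 60.2% and 54.3% in replicates 1 to 3 labelled cKO. Control replicate 1 and replicates 1 and 3 labelled cKO had the 3 lowest shares. The same libraries had the 3 highest sums of a list of 10 mural and fibroblast genes, at 4844, 2790 and 2692 scaled CPM. The sums were 464, 678 and 181 in control replicates 2 and 3 and cKO replicate 2. Not every gene followed the sum. The mural genes Rgs5 and Myh11 were lower in cKO replicate 3 (81.7 and 51.8) than in control replicate 3 (116 and 110). The other genes of the list were higher in cKO replicate 3 than in control replicate 3. The part of mural and fibroblast content in the layer shares was not tested.

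**Figure D3:**
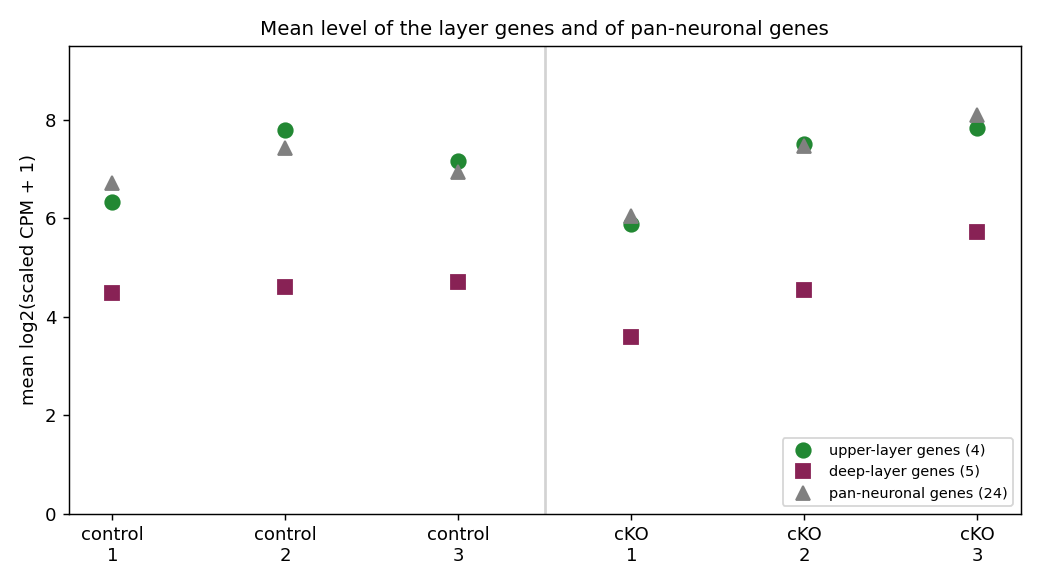
Mean log2(scaled CPM + 1) of the 4 upper-layer genes (green circles), the 5 deep-layer genes (purple squares) and 24 pan-neuronal genes (grey triangles) in each library. Upper-layer and pan-neuronal means lie within 0.38 units of each other in every library, and the deep-layer minus pan-neuronal difference runs from -2.91 to -2.22.

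Per kilobase of exon, Tbr1 had the highest mean of the 9 genes over the 6 libraries, at 17.2 ± 11.1 scaled CPM per kilobase (SD, n = 6), but led in only 2 of them, control replicate 2 and cKO replicate 3. Tle4 led in control replicate 1 and cKO replicate 1, Cux1 in control replicate 3 and Cux2 in cKO replicate 2. In order of means it was followed by Cux2 (14.8 ± 8.35), Rasgrf2 (13.3 ± 6.96), Rorb (12.3 ± 9.24), Cux1 (11.96 ± 3.94) and Tle4 (10.7 ± 1.96), and no neighbours among these 6 differed by more than their SD. Fezf2 (3.89 ± 4.20) and Bcl11b (3.71 ± 2.94) came next, and their order turned between groups. In the control libraries Bcl11b (3.81 ± 1.10) lay above Fezf2 (1.39 ± 0.69) by more than either SD, and in those labelled cKO the means were 3.61 ± 4.51 and 6.39 ± 4.999 (SD, n = 3 each), with Fezf2 above Bcl11b in replicates 2 and 3. Foxp2 was lowest at 0.567 ± 0.229, with a highest library (0.767) below the lowest library of Bcl11b (0.785). These levels take the whole annotated exon length, which is 20024 bases for Cux1, so a gene read mainly from shorter isoforms is understated.

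The pan-neuronal mean log2 level itself ran from 6.04 in cKO replicate 1 to 8.10 in cKO replicate 3, and subtracting it within each library gave a level relative to neuronal RNA. On that scale the span between the highest and the lowest library shrank for 7 of the 9 genes. For Tbr1 the span fell from 3.35 to 1.47 log2 units, for Rorb from 2.97 to 1.29, for Rasgrf2 from 2.06 to 0.87 and for Cux2 from 2.36 to 1.52. The span thus fell most for Tbr1 and least, among these 4, for Cux2. The Fezf2 and Bcl11b spans stayed wide, at 3.09 and 2.73 after 3.38 and 3.30, and that of Cux1 went from 1.37 to 1.34.

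Spans grew for Tle4, from 0.80 to 1.83, and for Foxp2, from 1.61 to 2.36. Relative to pan-neuronal genes Tle4 was highest in cKO replicate 1, at -0.06, and lowest in control replicate 2, at -1.89. Foxp2 was highest in control replicate 1, at -2.95, and lowest in cKO replicate 2, at -5.31. For none of the 9 genes did this scaling part the groups. The share of all genes parted on this scale was not computed, so the count says nothing particular of the 9. On the plain scale that share was 4.7%.

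**Figure D4:**
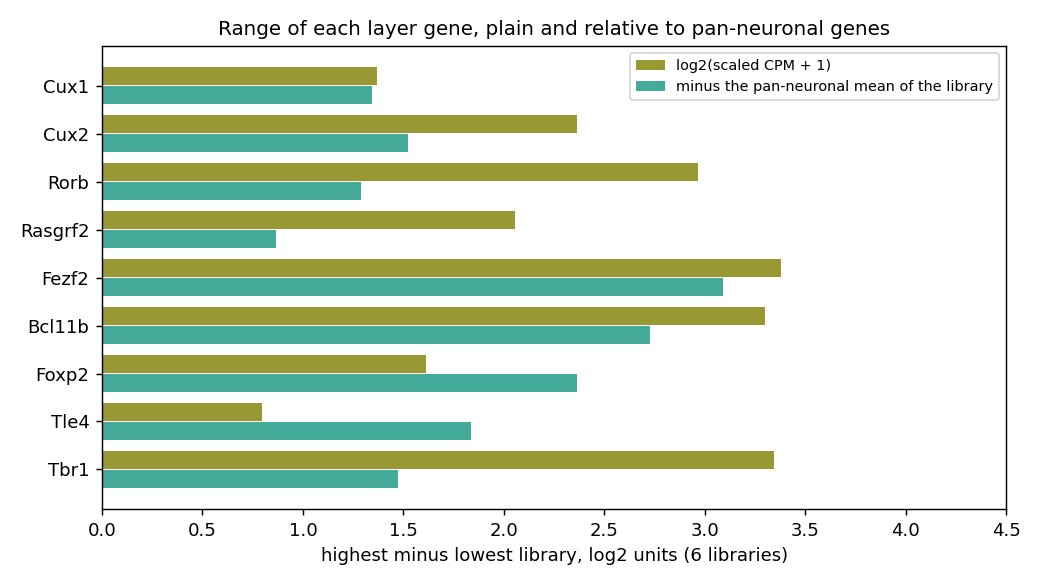
Highest minus lowest of the 6 libraries for each layer gene, in log2 units, before (olive bars) and after (teal bars) subtracting the pan-neuronal mean of the library. The bar shortens most for Tbr1, from 3.35 to 1.47, and lengthens for Tle4 and Foxp2.

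Profiles over the 6 libraries, centred and scaled per gene, were compared by Euclidean distance as a description. Cux2 and Rasgrf2 were the nearest pair, at 0.63. The second nearest pair, Rasgrf2 and Tbr1 at 0.80, joined an upper and a deep gene, and Tbr1 was nearer to each of the 4 upper-layer genes than to any other deep-layer gene. Distances of the 4 upper-layer genes from their own mean profile were 0.62 to 1.19, and those of the 5 deep-layer genes from theirs were 1.38 to 1.88. Among 12081 other tested genes with a mean of at least 5, those near the upper-layer profile included Dmtn, Cnnm1, Tspan33 and Nrg3, at 0.26 to 0.30 beside a median of 3.15. Dmtn, which encodes the actin-binding protein dematin, was at 44.3, 160 and 87.4 and at 26.1, 105 and 144. Nearest to the deep-layer profile were Cdk17, Pcbp3, Pdlim7, Anxa7 and Kpna1, at 0.78 to 0.84 beside a median of 2.57. All these profiles share the same 6 libraries and their cell content.

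Other genes of the same layers gave the same count of calls. Of 16 further upper-layer genes 15 were tested, 8 of them higher under the cKO label and 7 lower, with a median log2 difference of 0.01 and 0 past the adjusted threshold in limma or at an unadjusted p under 0.05. Calb1, a calcium-binding protein gene, was at 26.8, 57.4 and 29.1 and at 18.4, 67.0 and 117. Pou3f2, which encodes the upper-layer factor BRN2, had group means of 44.8 ± 8.01 and 58.1 ± 21.0. Rspo1, a Wnt agonist gene, and Mdga1, a cell adhesion gene, had log2 differences of -0.78 and 0.44. Calb1 and Pou3f2 were higher in cKO replicates 2 and 3 than in every control library, with cKO replicate 1 the lowest of the 6.

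Of 27 further deep-layer genes 25 were tested, with 10 higher and 15 lower, a median of -0.08 and again 0 past either threshold. Ntsr1, a neurotensin receptor gene of corticothalamic neurons, was at 1.47, 2.28 and 2.17 and at 1.87, 8.89 and 10.1. As with Fezf2, cKO replicates 2 and 3 were above all control libraries and cKO replicate 1 was not. Oprk1, the kappa opioid receptor gene, was at 1.20, 22.5 and 7.45 and at 0.624, 0.606 and 2.78, a log2 difference of -1.82 (SE 0.90). S100a10, an annexin partner that marks corticostriatal neurons, had a difference of -2.00 (SE 0.99), and Rbp4, a retinol carrier gene used as a deep-layer marker, one of -1.22 (SE 0.75). For these 2 genes cKO replicate 2 was at 0.

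Genes that give excitatory neurons their general identity were lower in 9 and higher in 7 of 16, with a median of -0.02. Slc17a6, the vesicular glutamate transporter gene used mainly below the cortex, was at 17.6, 61.7 and 14.0 and at 2.25, 0.101 and 35.5, the last being cKO replicate 3. Emx1, a homeobox gene of the dorsal telencephalon, was at 3.78, 2.57 and 6.45 and at 2.98, 11.9 and 11.6. Nfix and Mef2c, both transcription factor genes, had log2 differences of 0.35 and 0.43. Among 17 family relatives of the layer genes 13 were tested, with 9 higher and 4 lower and a median of 0.06. Tle1, a Groucho relative of Tle4, was at 67.1, 61.6 and 79.4 and at 57.0, 23.5 and 45.2. Its groups did not overlap, which held for only 1 of the 13, where 4.7% of all tested genes had no overlap. A count of 1 in 13 is near that share, and the log2 difference of Tle1, -0.79 (SE 0.39), did not pass the threshold. Tle6 (-0.97), Tle3 (0.29) and the chromatin organizer gene Satb1 (0.36) overlapped between groups.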

How the data were processed

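RNA from 6 sorted-cell libraries, 3 labelled control and 3 labelled cKO, was analysed. Libraries were made with the Ovation SoLo kit, per the labels' protocols, and the tools in the submitters' processing notes are Trimmomatic, HISAT2, featureCounts and edgeR, without versions, on mm10. For the counting, strand setting and annotation are not given here. The deposited values are a normalized signal, handled as read counts divided by the authors into CPM with a further factor per library, since column totals ran from 961962 to 1027958. In each library 100% of values were within 0.001 of a whole multiple of 1 step, so reads were recovered. Plain CPM had been assumed when the test was chosen, and the same test was used.

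limma 3.58.1 (R 4.3.3) with a mean-variance trend was fitted to log2(value + 1) over all genes that reached 1 in at least 3 libraries. P-values were adjusted by Benjamini-Hochberg over these genes and called under 0.05. Differences on this scale understate changes of low genes. P-values measure the spread between these libraries, which may be technical. Exon lengths, positions and overlaps are from GENCODE on mm10, and start regions from RefSeq (GRCm38.p6). The 9 genes and all lists were chosen with earlier results of these data known. Named genes are the 9, up to 4 members of each described layer, identity and relative list by smallest unadjusted p, and 5 nearest profiles per layer group, of which 1 is not reported here. Nearest profiles were taken from genes with a mean of at least 5. Scores over the 9 genes were given no test. The T cell genes Cd3e and Cd2 and the striatal gene Isl1 were named for their 0 counts. The choice of Ppp1r1b, Drd1, Cd4, Lck, Foxp3, Rgs5 and Myh11 followed a look at their values. The fit was also run on simulated counts. These held no shifts in cell content between libraries, so that run does not vouch for the fit here. Alternatives were edgeR 4.0.16 and DESeq2 1.42.0 on recovered reads, a replicate block, median-of-ratios scaling, filters at 5 or none, pseudocounts of 0.1 and 5, leaving out each library and, for the score, each of the 9 genes, and, chosen after the data were seen, leaving out both libraries numbered 2.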

Additional observations from a re-analysis of the deposited data

How the results depend on the processing

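None of the 9 layer genes passed the adjusted threshold under any of the 15 alternatives run, with adjusted p from 0.73 to 0.99996. Direction was kept in 117 of 135 gene and alternative pairs and turned in 18. Fezf2, Foxp2 and Tle4 kept theirs throughout. Without 1 library the log2 difference ran from -0.58 to 0.080 for Cux1, -0.39 to 0.91 for Cux2, -1.03 to 0.45 for Rorb, -0.17 to 0.86 for Rasgrf2, -0.60 to 1.08 for Tbr1, 0.87 to 2.56 for Fezf2, -1.78 to -0.13 for Bcl11b, -1.22 to -0.49 for Foxp2 and 0.10 to 0.35 for Tle4. On recovered reads Rorb turned to 0.19 in edgeR and 0.15 in DESeq2. Without both libraries numbered 2, an alternative chosen after the data were seen, Rorb was at 0.30, Bcl11b at 0.049 and Tbr1 at -0.019. The cause of these turns was not tested. The gap between groups in the upper minus deep difference moved from -0.05 to between -0.38 and 0.30 without 1 library, and to 0.31 without Fezf2, always by less than the spread between libraries. Over all genes DESeq2 called 1 lower, and the other settings called 0 in each direction.

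The replicate numbers were not shown to pair the libraries. Deviations from the group mean correlated at 0.49, 0.30 and 0.03 between libraries numbered 1, 2 and 3, and each library correlated best with its own number, which is a hint from the data and not the design. With the replicate block limma called 0 genes, with 110 higher and 197 lower at an unadjusted p under 0.05 against 50 and 76 without it, and the Cux2 difference stayed at 0.19 with an interval of -0.37 to 0.76, against -1.25 to 1.63 without it. Control replicate 2 and cKO replicate 2 had equal reads for 2.76% of tested genes, against 0.18% to 0.62% for the other library pairs, and 2.43% were at 0 reads in both. Equal reads above 0 made up 0.33% in that pair and 0.12% to 0.39% in the others. Depth limits Fezf2 and Foxp2 most, with as few as 30 and 34 reads in a library.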

Other observations

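A few genes outside the layer set had the library pattern of Fezf2, low in control replicates 1 to 3 and cKO replicate 1 and high in cKO replicates 2 and 3. They were noticed after the values were seen and were not tested as a group. Ppp1r1b, which encodes the dopamine-regulated phosphatase inhibitor DARPP-32, was at 8.02, 3.97 and 9.78 in the control libraries and at 1.78, 24.04 and 43.5 in those labelled cKO, beside the Ntsr1 and Emx1 values above. Its log2 difference was 0.89 (SE 0.94), with an adjusted p of 0.9996 in limma. Drd1, a dopamine receptor gene of the striatum, did not share that pattern, at 4.52, 8.09 and 7.06 and at 2.495, 0 and 7.66.

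Foxp3, a forkhead relative of Foxp2 that defines regulatory T cells, was at 28.4 (281 reads) in cKO replicate 2 and at 0.576 to 4.93 in the other 5 libraries. Of the T cell genes listed, Cd3e and Cd2 had 0 reads in every library. Lck and Cd4 were highest in that same cKO replicate 2, at 5.76 and 1.21. The other T cell genes in the table were at 0 in cKO replicate 2. The annotation places other genes over the Foxp3 exons, among them Ccdc22 on the opposite strand over 12.9% of their bases and Flicr over 18.6%, so the Foxp3 reads are uncertain.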
